A study of Mus musculus with 9 samples.

Results

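Chemokines and cytokines made by the tumor cells themselves were compared between the parental MC38 line and its liver metastatic derivatives. The genes were Ccl2, Ccl5, Ccl7, Cxcl1, Cxcl10, Cxcl12, Cxcl16, Csf1, Il6 and Il34, chosen by symbol. Of these 10 genes, 9 were matched to a row among the 16399 genes listed, and Cxcl12 was not analysed here. Levels are given in TPM, a unit that divides by transcript length and by the library total, so that levels of different genes can be compared.

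MC38 is a mouse colon carcinoma line. MC38-P was the parental population, labelled with GFP and firefly luciferase. MC38-LM3a and MC38-LM3b descend from MC38-P, with the same labels, through 3 rounds of injection into the spleen of immunocompetent C57BL/6 mice, resection of liver metastases, collagenase dissociation and growth in culture. The study's text calls both lines independently derived. In its selection flowchart both branched from a single earlier derivative, MC38-LM2. On that scheme they share every round but the last and are not independent selections from MC38-P. No drug or gene edit was part of the comparison, each derivative is 1 line, and RNA was taken from cultured cells, with 3 biological replicates per group. Whether the replicates were grown as separate cultures is not given beyond that term, so p-values measure the spread between these samples. The tissue around a metastasis was therefore not measured.

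Chemokines are small secreted proteins that bind receptors on leukocytes and steer their migration. CC chemokines such as Ccl2 and Ccl7 draw monocytes through the receptor Ccr2, whereas Cxcl1 draws neutrophils through Cxcr2 and Cxcl10 draws activated T cells through Cxcr3. Cxcl16 is made as a membrane protein that can be shed by the proteases Adam10 and Adam17, and its receptor is Cxcr6. Csf1 and Il34 are separate ligands of one receptor, Csf1r, on which macrophages depend. Il6 signals through Il6ra and the shared subunit Il6st to Jak kinases and Stat3.

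The chemokine classes are named after the spacing of the first cysteines of the mature protein, which is visible in the coding sequence. The stretches below illustrate the class that each gene's name already states. They were read from GENCODE M21 on GRCm38, lie in exon 2 of each gene, and carry these cysteine codons in capitals. The search looked for the spacing of the named class, so it cannot assign a class. It skipped the first 20 residues, where the signal peptide and any cysteine in it lie. These codons adjoin in Ccl2 (chr11:82036488-82036529, plus strand) and Ccl7 (chr11:82046520-82046561, plus strand). They are separated by 1 residue in Cxcl1 (chr5:90891478-90891522, plus strand), Cxcl10 (chr5:92348163-92348207, minus strand) and Cxcl16 (chr11:70459109-70459153, minus strand).
Ccl2: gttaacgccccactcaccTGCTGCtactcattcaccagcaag
Ccl7: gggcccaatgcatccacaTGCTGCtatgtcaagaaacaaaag
Cxcl1: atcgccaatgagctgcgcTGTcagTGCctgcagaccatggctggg
Cxcl10: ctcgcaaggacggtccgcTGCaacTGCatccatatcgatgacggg
Cxcl16: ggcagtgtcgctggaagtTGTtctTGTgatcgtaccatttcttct
Ccl2 and Ccl7 are neighbours on chromosome 11. In Cxcl16 the open reading frame spans 246 residues, against 96 to 148 in the other 4.

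No member shared a 50-base stretch with another gene on its own strand in that annotation. On the opposite strand, 16.92% of the 50-base stretches of Cxcl16 (503 of 2973) lay in Zmynd15, 3.59% of those of Cxcl10 in Art3 and 1.3% of those of Il34 in Gm15895. The strand setting of the libraries and of the quantification is not given in the sources used here, so reads from these overlaps cannot be told apart.

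The libraries were alike in broad terms, with 10875 to 11218 genes at 1 TPM or more. Sequencing depth is unknown, since the values hold no counts. MC38-LM3a replicate 3 stood apart from its group. Over the tested genes it correlated at 0.991 with each of the other MC38-LM3a libraries and at 0.995 to 0.996 with the MC38-LM3b libraries. Its deviations from the group mean rose with transcript length (Spearman's rho = 0.644 across 11096 genes), whereas those of MC38-P replicate 3 fell with length (rho = -0.620). These correlations describe genes within libraries and carry no p-value. Csf1 has the longest transcript of the members (4176 bases, against a median of 3426.5), and values whose call or size turned on these libraries are given without them too for the members, and for other genes as counts and examples.

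The labelled cell type, epithelial, was checked against markers. The keratin genes Krt8 (743.78 to 1205.6 TPM), Krt18 (707.11 to 981.48) and Krt19 (105.08 to 156.89) were high in every library. Other defining epithelial genes were low, with Cdh1 at 0.08 TPM or less, Vil1 at 0.13 or less and Epcam between 1.87 and 6.31. Of the 6 epithelial genes tested, Krt8, Krt18, Cdx2 and Epcam were called lower in both derivatives, while Krt19 and Krt20 were called higher in MC38-LM3a. Of all tested genes, 13.8% were called lower and 14.1% higher in MC38-LM3a, and 11.2% lower and 35.6% higher in MC38-LM3b. Krt8 fell by 0.48 on the log2 scale in MC38-LM3a (limma adjusted p = 0.0004646) and by 0.56 in MC38-LM3b (adjusted p = 0.0001345).

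**Figure D1:**
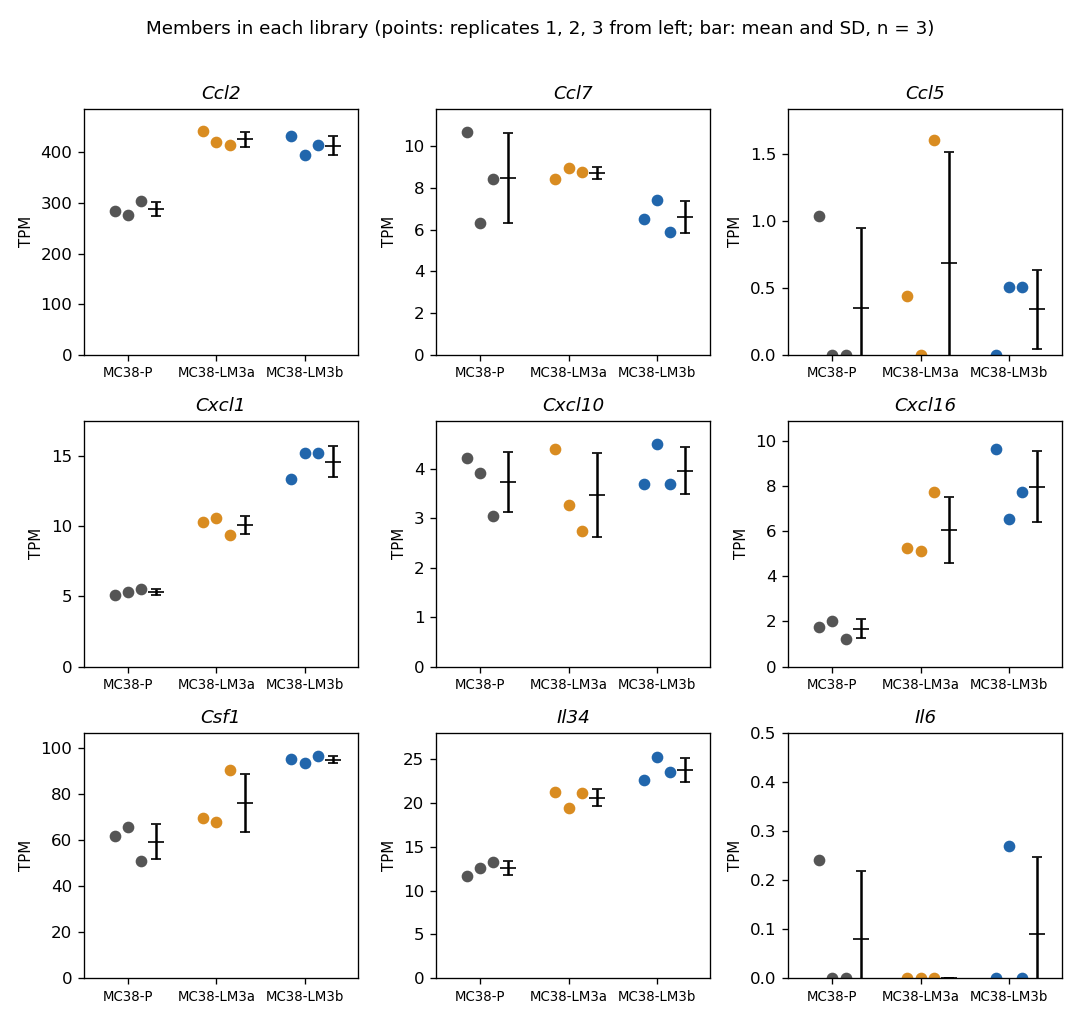
TPM of the 9 members in the 9 libraries, on linear axes that start at 0 and differ between panels; points are replicates 1, 2 and 3 from left to right, and bars give the mean and SD of 3. Ccl2, Cxcl1, Cxcl16, Csf1 and Il34 lie higher in every derivative library than in any MC38-P library. The share of all genes that separate in this way is not given here. Ccl7, Cxcl10 and Ccl5 overlap, and Il6 is listed at 0 in 7 libraries.

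Differences were tested with limma on log2(TPM + 1) over 11287 genes, with Benjamini-Hochberg adjustment. A gene was called at an adjusted p under 0.05, and a DEG also had an absolute log2 fold change above 1. The added 1 makes a low gene's change look smaller than it is. Of the 9 members, 7 reached 1 TPM in 3 or more libraries and were tested, while Ccl5 and Il6 did not reach that level.

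Against MC38-P, MC38-LM3a had higher Ccl2, Cxcl1, Cxcl16 and Il34 (4 of 7 tested members called, none lower), where 14.1% of all tested genes were called higher and 13.8% lower. MC38-LM3b had higher Ccl2, Cxcl1, Cxcl16, Csf1 and Il34 (5 of 7, none lower), where 35.6% of all genes were called higher and 11.2% lower. Cxcl16 was a DEG in both derivatives and Cxcl1 in MC38-LM3b, with 1.39% and 2.76% of genes being higher DEGs in the respective comparisons. The median log2 fold change was 0.56 over the tested members and -0.00 over all genes for MC38-LM3a, and 0.68 against 0.21 for MC38-LM3b. The 0.21 is a median over all genes, and its bearing on a MC38-LM3b value varied by gene. Quantile normalization brought that median to 0.0162. Ccl2 in MC38-LM3b then went from 0.52 to 0.47, and Cxcl1 from 1.31 to 1.05. With libraries centred on their medians, 2586 genes were called higher and 2981 lower in MC38-LM3b, in place of 4013 and 1263. Both comparisons share the MC38-P libraries and are not independent of each other. Whether the libraries of the groups overlap is described below gene by gene. The share of all genes without overlap is not given here, so such separation is not a result about the members.

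The member with the highest level was Ccl2, the monocyte attractant. Its TPM was 283.67, 276.84 and 303.8 in MC38-P, 441.59, 420.47 and 415.2 in MC38-LM3a, and 432.33, 394.17 and 414.31 in MC38-LM3b. Each derivative library exceeded each parental library, and the derivatives overlapped. Means were 288 ± 14.0 TPM for MC38-P (SD, n = 3), 426 ± 14.0 for MC38-LM3a and 414 ± 19.1 for MC38-LM3b. Ccl2 rose by 0.56 on the log2 scale in MC38-LM3a (SE 0.0592, limma adjusted p = 7.669e-05) and by 0.52 in MC38-LM3b (SE 0.0592, adjusted p = 9.311e-05). The MC38-LM3b value fell to 0.30 (adjusted p = 0.05376) with libraries centred on their medians, and stayed called under quantile normalization at 0.47 (adjusted p = 0.0001227). By mean TPM, Ccl2 ranked 518 of 16399 genes in the parental cells, 342 for MC38-LM3a and 364 for MC38-LM3b.

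Ccl7, its neighbour on the chromosome and another Ccr2 ligand, was not called in either derivative. Levels were 10.67, 6.32 and 8.45 TPM in MC38-P, 8.43, 8.97 and 8.74 in MC38-LM3a, and 6.5, 7.42 and 5.89 in MC38-LM3b. Parental libraries spanned nearly the whole range of the derivatives. Relative to MC38-P it differed on the log2 scale by 0.06 in MC38-LM3a (95% interval -0.29 to 0.41, limma adjusted p = 0.822) and by -0.30 in MC38-LM3b (-0.65 to 0.06, adjusted p = 0.1451). After a correction for transcript length and GC content, Ccl7 was called lower in MC38-LM3b at -0.45 (adjusted p = 0.01671), and centring gave -0.52 (adjusted p = 0.02258). The MC38-LM3b value was -0.13 without MC38-P replicate 1 (adjusted p = 0.4544) and -0.47, called, without MC38-P replicate 2 (adjusted p = 0.02978). The ratio of Ccl2 to Ccl7 TPM ran from 26.6 to 43.8 in parental libraries, from 46.9 to 52.4 in those of MC38-LM3a and from 53.1 to 70.3 in those of MC38-LM3b, with no overlap between groups.

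Ccl5, an attractant of T cells and other leukocytes, was listed at 1.04, 0 and 0 TPM in MC38-P, 0.44, 0 and 1.61 in MC38-LM3a, and 0, 0.51 and 0.51 in MC38-LM3b. Each group thus held at least 1 library at 0. Without the filter on low values, its log2 fold changes were 0.29 (adjusted p = 0.6849) and 0.05 (adjusted p = 0.9477).

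Of the CXC chemokines, Cxcl1 separated all 3 groups. Its TPM was 5.08, 5.31 and 5.5 in MC38-P, 10.28, 10.6 and 9.41 in MC38-LM3a, and 13.36, 15.25 and 15.21 in MC38-LM3b. No library of one group overlapped another group. The rise was 0.82 on the log2 scale in MC38-LM3a (SE 0.102, limma adjusted p = 0.0002379) and 1.31 in MC38-LM3b (SE 0.102, adjusted p = 7.548e-06). In mean TPM this was 1.91-fold and 2.76-fold. Cxcl1 attracts neutrophils, and its receptor Cxcr2 stayed at 0.59 TPM or less in these cells.

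Cxcl16 had the largest fold change of the members in both derivatives. TPM was 1.76, 2.04 and 1.21 in MC38-P, 5.26, 5.14 and 7.74 in MC38-LM3a, and 9.68, 6.53 and 7.76 in MC38-LM3b. All derivative libraries lay above all parental ones, while MC38-LM3a replicate 3 reached into the MC38-LM3b range. Cxcl16 rose by 1.39 on the log2 scale in MC38-LM3a (SE 0.186, limma adjusted p = 0.0003545) and by 1.75 in MC38-LM3b (SE 0.186, adjusted p = 6.266e-05), or 3.62-fold and 4.78-fold in mean TPM. Without MC38-P replicate 3 and MC38-LM3a replicate 3, the first value was 1.10 (adjusted p = 0.0001322).

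Zmynd15, which overlaps Cxcl16 on the opposite strand, moved in the same direction. Its TPM was 0.68 to 1.67 in parental libraries, 1.66 to 2.99 in those of MC38-LM3a and 3.21 to 4.22 in those of MC38-LM3b. Its values on the log2 scale were 0.63 (limma adjusted p = 0.03664) and 1.22 (adjusted p = 0.0007896). How much of either change comes from shared reads was not tested.

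Cxcl10, a ligand of Cxcr3, showed no difference that passed the test. It stood at 4.22, 3.91 and 3.05 TPM in MC38-P, 4.4, 3.27 and 2.74 in MC38-LM3a, and 3.69, 4.51 and 3.7 in MC38-LM3b. The 3 groups overlapped throughout. Differences from MC38-P on the log2 scale were -0.09 for MC38-LM3a (95% interval -0.44 to 0.26, limma adjusted p = 0.7296) and 0.08 for MC38-LM3b (-0.28 to 0.43, adjusted p = 0.7081), and the sign of the latter turned under centring, quantile normalization and the length and GC correction. The overlapping gene Art3 was at 0.2 TPM or less.

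Both ligands of Csf1r were expressed, Csf1 at the higher level. Il34 had 11.72, 12.62 and 13.29 TPM in MC38-P, 21.23, 19.45 and 21.16 in MC38-LM3a, and 22.57, 25.26 and 23.53 in MC38-LM3b. The 3 groups did not overlap. Il34 rose by 0.67 on the log2 scale in MC38-LM3a (SE 0.0920, limma adjusted p = 0.0003945) and by 0.87 in MC38-LM3b (SE 0.0920, adjusted p = 5.954e-05).

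Csf1, the main growth factor of macrophages, had 61.54, 65.59 and 50.77 TPM in MC38-P. In MC38-LM3a it had 69.5, 67.99 and 90.47, and in MC38-LM3b 94.94, 93.31 and 96.35. MC38-LM3a replicate 3 was close to the MC38-LM3b libraries, whereas the other MC38-LM3a libraries were only just above the highest parental one. Csf1 rose by 0.68 on the log2 scale in MC38-LM3b (SE 0.119, limma adjusted p = 0.001287). In MC38-LM3a the fold change was 0.35 (SE 0.119) and missed the threshold (adjusted p = 0.05076), although the groups did not overlap. It was 0.22 without MC38-LM3a replicate 3 (adjusted p = 0.08819), 0.24 without MC38-P replicate 3 (adjusted p = 0.1332) and 0.11 without both (adjusted p = 0.04898). The length and GC correction, which keeps all libraries, gave 0.39 (adjusted p = 0.0001139).

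Together Csf1 and Il34 summed to 64.1 to 78.2 TPM in parental libraries, 87.4 to 111.6 in those of MC38-LM3a and 117.5 to 119.9 in those of MC38-LM3b. The ratio of Csf1 to Il34 TPM was 3.82 to 5.25, 3.27 to 4.28 and 3.69 to 4.21 in the same order, and overlapped between all groups.

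Il6 was at or near the lower end of the scale in every library. It was listed at 0.24, 0 and 0 TPM in MC38-P, at 0 in all 3 MC38-LM3a libraries, and at 0, 0.27 and 0 in MC38-LM3b. With no filter on low values its fold change was -0.10 on the log2 scale for MC38-LM3a (limma adjusted p = 0.5962) and 0.01 for MC38-LM3b (adjusted p = 0.9646).

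**Figure D2:**
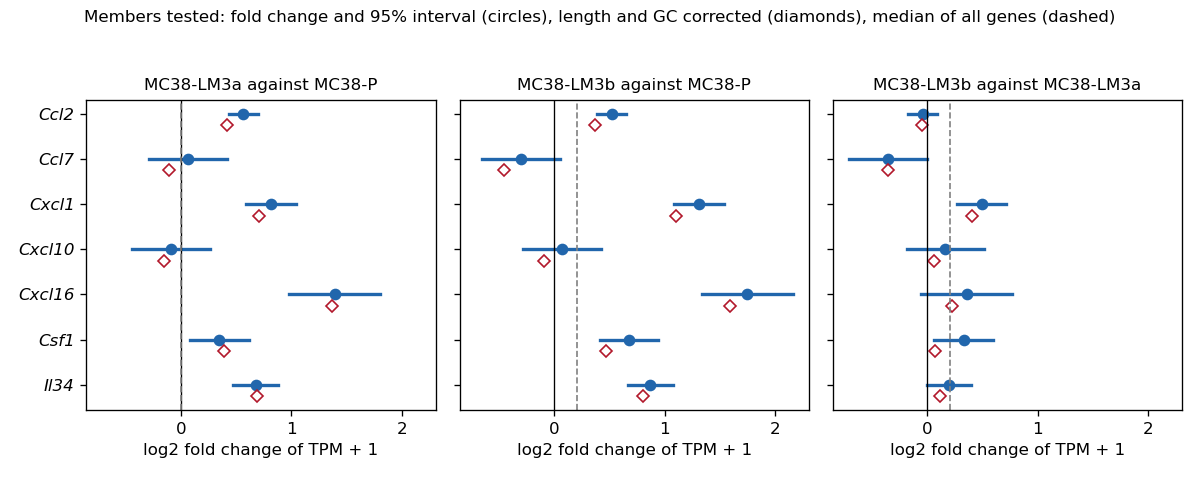
Log2 fold change of TPM + 1 for the 7 tested members in the 3 comparisons, with circles and lines for the limma estimate and 95% interval, diamonds for the estimate after the length and GC correction, and a dashed line for the median over all genes. The Cxcl16 circle lies farthest right in both comparisons with MC38-P, and the dashed line lies at 0.21 in the comparisons with MC38-LM3b.

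The derivatives were then compared with each other. None of the 7 tested members was called between MC38-LM3b and MC38-LM3a, where 0.0354% of all genes were called higher and 0.0177% lower by limma, and 4296 of 11287 genes had an unadjusted p under 0.05. Cxcl1 was higher in each MC38-LM3b library than in each MC38-LM3a library, at 0.49 (95% interval 0.27 to 0.72, adjusted p = 0.1187), and at 0.27 with libraries centred on their medians (adjusted p = 0.207). The other estimates were 0.36 for Cxcl16, 0.33 for Csf1, 0.20 for Il34, 0.16 for Cxcl10, -0.04 for Ccl2 and -0.36 for Ccl7, beside a median of 0.21 over all genes. Centring on the medians, which takes that shift out, gave 0.13 for Cxcl16, 0.11 for Csf1 and -0.26 for Ccl2. Quantile normalization gave 0.23 for Cxcl1, 0.084 for Cxcl16, 0.19 for Csf1 and -0.07 for Ccl2. The Ccl2 value thus depended on the normalization, and quantile normalization left it near the uncorrected -0.04.

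The calls between the derivatives depended on MC38-LM3a replicate 3. Without it, Cxcl1 (0.45, limma adjusted p = 0.007118), Cxcl16 (0.52, adjusted p = 0.02325) and Csf1 (0.46, adjusted p = 0.004201) were called higher in MC38-LM3b, along with 5874 of 11256 genes. Without it and MC38-P replicate 3, Il34 was called higher too (0.22, adjusted p = 0.01611), where 71.7% of all genes were called. With all libraries and the length and GC correction, Csf1 was at 0.07 (adjusted p = 0.4083), Cxcl16 at 0.22 (adjusted p = 0.3664) and Cxcl1 at 0.40 (adjusted p = 0.108).

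The order of levels was Ccl2, Csf1 and Il34 from the top in every group. In MC38-P they were followed by Ccl7, Cxcl1, Cxcl10, Cxcl16, Ccl5 and Il6. In MC38-LM3a the order after Il34 was Cxcl1, Ccl7, Cxcl16, Cxcl10, Ccl5 and Il6, and in MC38-LM3b it was Cxcl1, Cxcl16, Ccl7, Cxcl10, Ccl5 and Il6. Neighbours in these orders were separate in every pair of libraries, apart from Cxcl16 and Ccl7 in MC38-LM3b and Ccl5 and Il6 in each group. The 9 members summed to 372.6 to 386.1 TPM in parental libraries, 535.9 to 561.1 in those of MC38-LM3a and 547.2 to 583.1 in those of MC38-LM3b, of which Ccl2 made 72.0% to 78.7%.

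Promoters were examined for letters of known motifs, to show the sequence before the start site of each member that had an entry. The windows cover 250 bases in RefSeq on GRCm38.p6, and 4 of the 9 members matched an entry, those of Cxcl1 (chr5:90890995-90891244, plus strand), Csf1 (chr3:107760470-107760719, minus strand), Cxcl10 (chr5:92348890-92349139, minus strand) and Il6 (chr5:30012864-30013113, plus strand). Capitals mark matches to the kB motif GGNNNTTCC, bound by NF-kB, searched on both strands.
Cxcl1: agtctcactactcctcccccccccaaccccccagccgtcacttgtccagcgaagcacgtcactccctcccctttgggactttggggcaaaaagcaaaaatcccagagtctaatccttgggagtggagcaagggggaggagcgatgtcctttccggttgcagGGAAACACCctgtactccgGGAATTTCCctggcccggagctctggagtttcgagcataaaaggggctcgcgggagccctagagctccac
Csf1: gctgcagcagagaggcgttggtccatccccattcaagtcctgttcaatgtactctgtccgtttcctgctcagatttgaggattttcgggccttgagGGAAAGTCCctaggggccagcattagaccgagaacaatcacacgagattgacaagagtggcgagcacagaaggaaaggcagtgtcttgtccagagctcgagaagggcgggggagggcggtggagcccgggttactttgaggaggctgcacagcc
Cxcl10: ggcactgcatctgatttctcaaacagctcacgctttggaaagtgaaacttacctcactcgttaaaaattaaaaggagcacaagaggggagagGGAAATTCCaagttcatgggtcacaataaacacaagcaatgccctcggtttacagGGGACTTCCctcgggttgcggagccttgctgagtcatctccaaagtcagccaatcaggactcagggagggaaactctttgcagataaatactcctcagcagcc
Il6: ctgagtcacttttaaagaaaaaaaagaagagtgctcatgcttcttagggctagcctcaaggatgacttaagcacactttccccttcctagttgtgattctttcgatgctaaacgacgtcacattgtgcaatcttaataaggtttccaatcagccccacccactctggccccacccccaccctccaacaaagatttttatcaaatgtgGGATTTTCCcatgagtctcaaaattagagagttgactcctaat
All 4 windows held a kB match, at -89 and -70 in Cxcl1, -154 in Csf1, -158 and -103 in Cxcl10 and -43 in Il6, counted in bases from the start site. Of 32851 promoter windows of the same length, 15.7% held one. Cxcl10 also held GAAANNGAA, the core of an interferon response element, at -213 (7.13% of windows) and the AP-1 letters TGANTCA at -74, and Il6 held the latter at -249 (6.75% of windows). No window held TATAAA on either strand, which 12.4% of all windows did. A match describes only the sequence. Promoters of Ccl2, Ccl7, Ccl5, Cxcl16 and Il34 were not analysed here.

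The receptors of most members were barely expressed in the same cells. Csf1r, the receptor of Csf1 and Il34, was at 0.14 TPM or less in every library. Ccr2 was at 0.26 or less, Ccr1 at 0.2 or less, Ccr3 at 0.05 or less and Cxcr6 at 0.32 or less. Ptprz1, another reported partner of Il34, was at 0.04 or less. Of 23 chemokine receptor genes listed for this comparison, 19 had a row, 16 of these were under 1 TPM everywhere and none reached 10.

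Cxcr3, the receptor of Cxcl10, was low but rose. It had 0.69, 1.17 and 1.13 TPM in MC38-P, 2.05, 2.13 and 2.33 in MC38-LM3a, and 2.3, 2.55 and 1.66 in MC38-LM3b. The derivatives overlapped each other and neither overlapped MC38-P. It rose on the log2 scale by 0.67 in MC38-LM3a (SE 0.146, limma adjusted p = 0.005999) and by the same 0.67 in MC38-LM3b (SE 0.146, adjusted p = 0.004371). The only other chemokine receptor tested, Ccr10, had 0.46 to 2.19 TPM over the libraries and is named after its values were seen. It was called higher in MC38-LM3b (0.85, limma adjusted p = 0.00368) and not called in MC38-LM3a (0.31, adjusted p = 0.238). Of all tested genes, 35.6% were called higher in MC38-LM3b and 14.1% in MC38-LM3a.

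**Figure D3:**
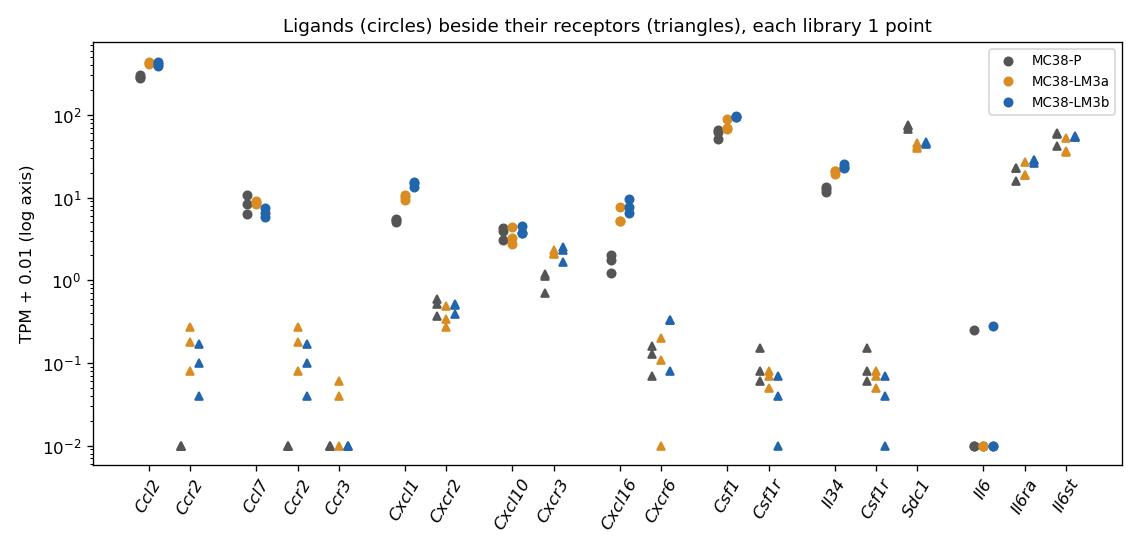
TPM + 0.01 on a log axis for members (circles) and their receptors (triangles), 1 point per library, colored by group. Ccr2, Ccr3, Cxcr2, Cxcr6 and Csf1r lie under 1 TPM in all libraries beside expressed ligands, whereas Il6ra and Il6st lie above 15 TPM beside Il6, which is at 0.27 or less.

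For Il6 the picture was the opposite, with the receptor chain well expressed and the ligand nearly undetected. Il6ra ranged from 15.95 to 28.4 TPM and Il6st from 36.08 to 59.82. Of the 13 genes of receptors, signal transducers and proteases of the members, 10 were tested. In MC38-LM3a none of these was called higher and Sdc1 was called lower, where 14.1% of all genes were called higher and 13.8% lower. In MC38-LM3b 5 were called higher (Tyk2, Jak1, Jak2, Stat3 and Adam10) and Sdc1 lower, where 35.6% and 11.2% of all genes were. The median of the 10 was 0.04 beside -0.00 over all genes for MC38-LM3a, and 0.43 beside 0.21 for MC38-LM3b.

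Stat3, the transcription factor that Il6-type cytokines activate, rose by 0.63 on the log2 scale in MC38-LM3b (SE 0.125, limma adjusted p = 0.002472), from 58.26 to 77.41 TPM in MC38-P to 104.39 to 109.89. The kinase genes Tyk2 (0.88, adjusted p = 0.0009346) and Jak1 (0.60, adjusted p = 0.006301) rose with it. The calls of Jak2 (0.44, adjusted p = 0.03706) and Adam10 (0.45, adjusted p = 0.033) were lost with libraries centred on their medians. Socs3, a target gene of Stat3, stayed between 13.74 and 18.75 TPM across all libraries, and Adam17 had 40.24 to 63.65 TPM.

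Sdc1, a cell surface proteoglycan that also binds Il34, went in the other direction from its ligand. Its TPM was 72.99, 76.23 and 67.71 in MC38-P, 39.88, 42.22 and 45.74 in MC38-LM3a, and 46.96, 44.88 and 45.68 in MC38-LM3b. Every derivative library was lower than every parental one. Sdc1 fell by 0.75 on the log2 scale in MC38-LM3a (SE 0.0770, limma adjusted p = 6.604e-05) and by 0.64 in MC38-LM3b (SE 0.0770, adjusted p = 0.0001237).

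Few of the other chemokine genes could be tested. Of 19 further CC genes, 9 had a row and 4 were tested, and of 12 further CXC and CX3C genes, 8 had a row and 3 were tested. Only Cx3cl1 was called in MC38-LM3a, where 28% of all tested genes were. It was lower (-0.39, limma adjusted p = 0.04811), and that call was lost with the replicate block. With all libraries, none was called in MC38-LM3b, where 46.7% of all genes were. Without MC38-P replicate 3 and MC38-LM3a replicate 3, Cx3cl1 in MC38-LM3a was at -0.64 (adjusted p = 1.632e-05), beside a median of -0.14 over all genes. Cx3cl1, a membrane-bound chemokine, had 39.39 to 52.33 TPM in parental libraries, 30.43 to 42.7 in those of MC38-LM3a and 42.36 to 43.76 in those of MC38-LM3b. Ccl25, the ligand of the gut homing receptor Ccr9, ranged from 14.21 to 20.59 TPM. No other gene of these lists reached 10 TPM as a group mean, apart from the members themselves.

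Of 34 other cytokine and growth factor genes, 30 had a row and 19 were tested. In MC38-LM3a 4 were called higher and 4 lower, with a median of 0.02, where 14.1% of all genes were called higher and 13.8% lower. In MC38-LM3b 7 were called higher and 2 lower, with a median of 0.32 beside 0.21 over all genes, and these counts are near the 35.6% and 11.2% of all genes. Il15, which supports natural killer and memory T cells, changed most. Its TPM was 0.77, 0.73 and 0.74 in MC38-P, 3.06, 2.69 and 3.69 in MC38-LM3a, and 5.09, 5.03 and 5.24 in MC38-LM3b. No groups overlapped, and the order was that seen for Cxcl1. Il15 rose by 1.24 on the log2 scale in MC38-LM3a (SE 0.117, limma adjusted p = 3.6e-05) and by 1.81 in MC38-LM3b (SE 0.117, adjusted p = 1.884e-06).

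Gdf15, a stress-induced member of the TGF-beta family, was lower in both derivatives. Its TPM was 6.15, 6.94 and 4.98 in MC38-P, 3.12, 3.06 and 3.13 in MC38-LM3a, and 2.89, 1.85 and 2.71 in MC38-LM3b. It fell by 0.77 on the log2 scale in MC38-LM3a (limma adjusted p = 0.003351) and by 1.02 in MC38-LM3b (adjusted p = 0.0004397). Both derivatives lay wholly under MC38-P.

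Il18, an inflammasome-processed cytokine, rose by 0.77 on the log2 scale in MC38-LM3a (limma adjusted p = 0.007665), from 4.77 to 8.59 TPM in MC38-P to 10.65 to 12.44. In MC38-LM3b its value was 0.56 (adjusted p = 0.02273) and was not called with libraries centred on their medians. Tnfsf9, a costimulatory ligand for T cells, had 17.64 to 22.24 TPM in parental libraries, 23.76 to 28.7 in those of MC38-LM3a and 23.83 to 25.52 in those of MC38-LM3b, and its calls (0.38, adjusted p = 0.02203, and 0.33, adjusted p = 0.02745) were lost with the replicate block. Kitl, the ligand of the receptor Kit, rose in MC38-LM3b (0.48, adjusted p = 0.01405).

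Vegfc, a lymphatic growth factor, fell by 0.64 on the log2 scale in MC38-LM3a (limma adjusted p = 0.002217), from 10.8 to 12.44 TPM in MC38-P to 7.08 to 7.35. Spp1, the matrix cytokine osteopontin, fell by 0.41 in MC38-LM3a (adjusted p = 0.003902), from 225.85 to 269.15 TPM to 176.84 to 208.9. With all libraries, neither was called in MC38-LM3b, where Vegfc had 8.79 to 11.48 TPM and Spp1 225.49 to 233.83. Mif had the highest level of any cytokine listed (1235.4 to 1699.28 TPM) and was not called with all libraries. Tgfb1 (91.81 to 132.06 TPM), Vegfa (31.4 to 51.81), Tgfb3 (13.97 to 19.98), Clcf1 (8.48 to 14.62) and Lif (6.3 to 10.68) were also expressed and not called with all libraries. Without MC38-P replicate 3 and MC38-LM3a replicate 3, 63.6% of all genes were called in MC38-LM3a and their median was -0.14. In that setting MC38-LM3a had lower Vegfa (-0.51, limma adjusted p = 0.0002429), Tgfb1 (-0.44, adjusted p = 1.632e-05) and, among receptors, Il6st (-0.69, adjusted p = 1.404e-06). Clcf1 (-0.45, adjusted p = 0.007146), Lif (-0.31, adjusted p = 0.01465) and Tgfb3 (-0.30, adjusted p = 0.01739) were lower too. Mif was higher (0.23, adjusted p = 0.005499). In MC38-LM3b, where 65.3% of all genes were called, Mif (-0.17, adjusted p = 0.01488) and Spp1 (-0.20, adjusted p = 0.0007229) were lower. Lif was higher there (0.26, adjusted p = 0.02054).

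**Figure D4:**
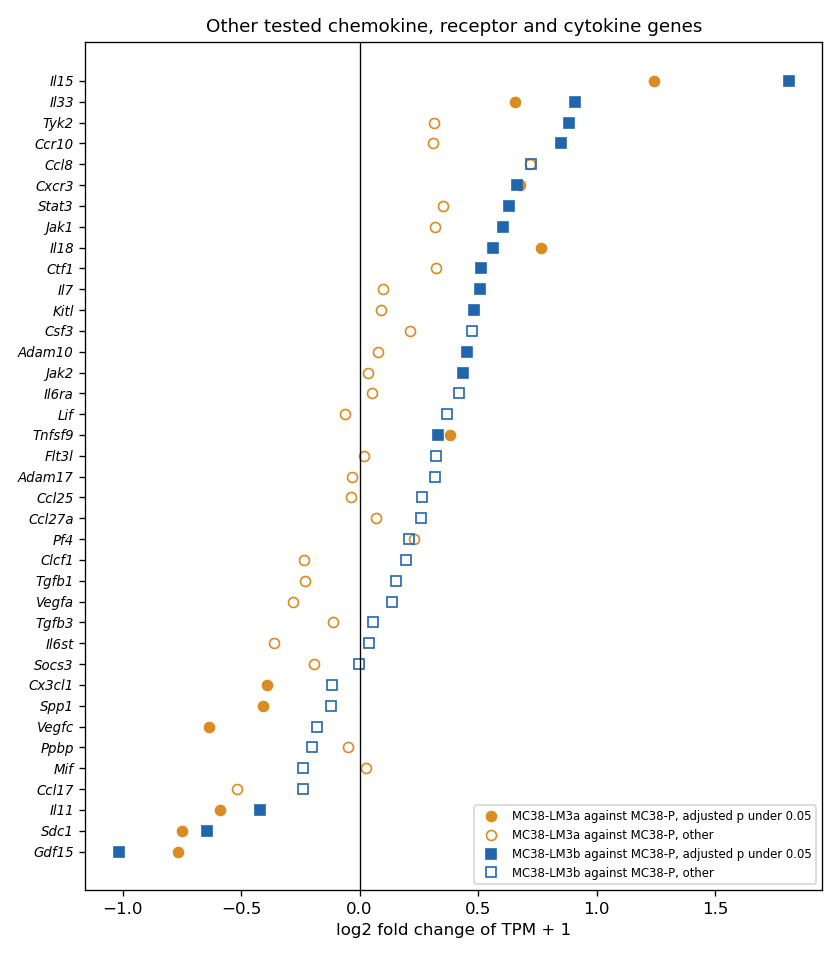
Log2 fold change of TPM + 1 against MC38-P for the 38 other chemokine, receptor and cytokine genes tested, ordered by the value in MC38-LM3b; circles are MC38-LM3a, squares MC38-LM3b, and filled symbols have a limma adjusted p under 0.05. Il15 lies at the top in both derivatives and Gdf15 and Sdc1 at the bottom.

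Of these 38 genes, 11 were called in MC38-LM3a, 17 in MC38-LM3b and none between the derivatives, in either direction, where 28%, 46.7% and 0.0532% of all tested genes were called. The counts against MC38-P are near those shares and are not a result about these genes. Without MC38-P replicate 3 and MC38-LM3a replicate 3 the counts were 24, 29 and 27, and the shares over all genes rose likewise to 63.6%, 65.3% and 71.7%.

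The genes whose pattern over the 9 libraries was most like that of a member were found by the root mean square difference of centred log2 values. For Cxcl16 they were Maml2 (0.120), Serpinb2 (0.139) and Arl14 (0.140), against a root mean square of 0.784 for Cxcl16 itself. For Cxcl1 they were Igtp (0.0944), Lat2 (0.116) and Stac3 (0.129), against 0.543. For Il34 they were Fez2 (0.0488), Hexa (0.0613) and Fam71f1 (0.0739), against 0.379. Igtp, an interferon-inducible GTPase gene, had 2.52 to 3.06 TPM in parental libraries, 6.22 to 6.66 in those of MC38-LM3a and 8.66 to 9.02 in those of MC38-LM3b. Serpinb2, a plasminogen activator inhibitor gene, had 14.49 to 19.71, 37.96 to 48.16 and 54.27 to 55.7 TPM in the same order.

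In bulk RNA from a culture, fewer cells of a type and less RNA per cell cannot be told apart, so genes of leukocytes and liver cells, which also make chemokines, were examined. Ptprc, carried by nearly all leukocytes, was at 0.09 TPM or less, and both T and NK cell genes with a row of 10 listed were at 0.18 or less. Of 15 macrophage genes, 8 had a row and 6 of these were under 1 TPM everywhere, with Itgam at 0.05 or less, Lyz2 at 0.28 or less and Csf1r as above. The other 2, Cd68 (27.72 to 45.57 TPM) and Cd14 (10.29 to 16.03), were called higher in both derivatives, so that the summed level of the list was 39.3 to 41.0 TPM in parental libraries, 49.2 to 54.5 in those of MC38-LM3a and 56.0 to 60.7 in those of MC38-LM3b. Cd68 rose by 0.33 on the log2 scale in MC38-LM3a (limma adjusted p = 0.02195) and by 0.57 in MC38-LM3b (adjusted p = 0.0007948).

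The 4 granulocyte genes with a row of 7 listed were led by Ly6g (3.11 to 6.46 TPM) and the 5 endothelial genes of 8 by Cdh5 (0.45 to 1.39 TPM). Only these leading genes of the lists were tested, and neither was called. Of 9 hepatocyte genes, 6 had a row, with Alb at 0.29 TPM or less and Apoa2, the only one tested, between 1.16 and 4.23 and not called. Of 10 fibroblast and stellate cell genes, 8 had a row and summed to 17.6 to 23.7 TPM in parental libraries, 7.01 to 9.98 in those of MC38-LM3a and 9.49 to 10.5 in those of MC38-LM3b. Col1a1, which mesenchymal tumor cells also express, led this list and fell by 1.55 on the log2 scale in MC38-LM3a (limma adjusted p = 9.807e-05) and by 1.48 in MC38-LM3b (adjusted p = 9.906e-05). Of the other tested genes of this list, Acta2 was called lower in both derivatives (1.05 to 4.32 TPM), and Pdgfrb was called higher in MC38-LM3b, with 3.48 to 3.8 TPM against 1.15 to 1.74 in parental libraries. Krt18, Krt19, Krt20, Cdx2, Epcam, Cdh1, Vil1, Itgam, Lyz2, Alb, Acta2, Pdgfrb and Cd14 are named after their values were seen. The part of these marker genes, epithelial ones included, in the changes of the chemokines was not tested.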

How the data were processed

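RNA from cultures of the parental line and both derivatives (3 replicates each) was poly(A) selected, reverse transcribed with random primers and sequenced as circularised libraries on the DNBSEQ platform. The authors deposited TPM values per gene and library, with 2 decimals, and no counts. The submitters' processing notes name HISAT and GRCm39. The quantification tool and the strand setting are not given in the sources used here. TPM corrects for length within a library and sums to 1000000, so a value can move because other genes moved.

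Values were analysed with limma 3.58.1 in R 4.3.3 on log2(TPM + 1), after genes were kept that reached 1 TPM in 3 or more libraries (11287 genes). All 9 libraries entered a single model of group means, with trended variance, two-sided moderated tests and Benjamini-Hochberg adjustment over all tested genes. The study's methods name a count test, which TPM values do not allow. Depth is unknown, so no counting intervals are given. Replicate numbers did not pair the samples and no block was used.

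Members were chosen by symbol. The members, gene lists and tests were chosen with earlier results of these data known. Apart from members, genes were named if they were listed cytokine or receptor genes that were DEGs against MC38-P or reached a group mean of 10 TPM, receptors of the members, the highest gene of each marker list, or the 3 genes most like each of the 3 members with the largest changes. Overlapping genes and others noted as such were added after their values were seen. Alternatives covered pseudocounts of 0.1 and 0.5, filters, scaling, a loess offset (span 0.3) on transcript length and GC content, the replicate block, and leaving out each library in turn. Coordinates and sequences come from GENCODE M21 (GRCm38) and RefSeq (GRCm38.p6), builds that differ from GRCm39, and were read with Python 3.11.15.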

Additional observations from a re-analysis of the deposited data

How the results depend on the processing

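Over 21 alternatives, Cxcl1, Cxcl16 and Il34 were called higher in both derivatives in all, Ccl2 in MC38-LM3a in all and in MC38-LM3b in 20, and Csf1 in MC38-LM3b in all. Csf1 in MC38-LM3a was called in 7, and over all 21 it ran from 0.11 to 0.42 (adjusted p 7.659e-05 to 0.1332). Ccl7 was called lower in MC38-LM3b in 6. Signs turned for uncalled values. Ccl7 in MC38-LM3a was -0.10 with the length and GC offset, with or without the block, and -0.12 with the offset and a pseudocount of 0.1. On leaving out 1 library, Ccl7 ran from -0.11 to 0.22 and Cxcl10 from -0.23 to 0.031 in MC38-LM3a, and Cxcl10 from -0.032 to 0.15 in MC38-LM3b. In MC38-LM3b, Cxcl10 was -0.15 with median centring and -0.15 with quantile normalization, -0.094 with the offset (with or without the block), -0.11 with the offset and a pseudocount of 0.1, and -0.032 without both MC38-P replicate 3 and MC38-LM3a replicate 3. Between the derivatives, Cxcl10 was -0.058 and -0.084 and Il34 -0.025 and -0.030 with centring and quantile normalization. The causes were not tested.

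Of the 38 other genes, 11 called in MC38-LM3a became 17 with centring, 18 with quantile normalization, 18 with the offset (also with the block) and 19 with the offset and a pseudocount of 0.1. Calls over all genes moved with them, from 28% to 40%, 42% and 51.1% with centring, quantile normalization and the offset. The 17 in MC38-LM3b were 10 to 23 on leaving out 1 library, while the share of all genes called ran from 33% to 59%. Between the derivatives, leaving out 1 library gave 0 to 3 members and 0 to 22 other genes. The highest counts came without MC38-LM3a replicate 3, where 56.4% of all genes were called. Without it and MC38-P replicate 3, a choice made after seeing the data (as was the offset with a pseudocount of 0.1), 4 members were called between the derivatives, where 71.7% of all genes were, and 24, 29 and 27 other genes in the 3 comparisons. A further 609 alternative values were of other named genes that were called, which took in some markers and not all of the 38. Of these values, 550 stayed called, 59 lost the call and none reversed.

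Same-numbered libraries correlated at -0.336, -0.165 and -0.662 between MC38-P and MC38-LM3a and at 0.035 to 0.075 in the other comparisons, so the numbers were not taken as pairs. With the replicate block 4, 5 and 0 members were called, as without it, and 9, 14 and 0 other genes. Calls over all genes went from 1597 higher and 1563 lower to 1101 and 1099 in MC38-LM3a. The count tests could not be run on TPM. Without counts, the lower limit of detection for Il6 and Ccl5 is unknown.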
